A study of Mus musculus with 24 samples.

Results

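Fbln5, Itga6, Tgm2, Cd109 and Adamts16 were followed as a set of 5 extracellular matrix and adhesion genes among the 757 features of a mouse neuroinflammation probe panel, in all 24 brain samples of 7 groups. The members were chosen by symbol with their measured levels over these 7 groups already known (which of these decided is not recorded), so their levels and differences are given as a description. P-values are given for them only in the 3 comparisons among tumor-free irradiated mice in which EV groups enter, and there not for Fbln5 where UCI-191 EV enters. The level of a gene is its log2 normalized count, a difference of 1 on this scale is a 2-fold change, and a feature was counted as called at an adjusted p under 0.05 from limma over the 757 features.

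Every mouse was a male C57BL/6J perfused at 27 weeks. The paper describes experiments in mice of both sexes, and its legend to the expression figure does not give a sex. Control + Veh mice (n = 4) had no tumor, no irradiation and no temozolomide. RT-TMZ + Veh mice (n = 4) received cranial irradiation, given in the labels as 3 fractions of 9 Gy, with temozolomide (TMZ) at 25 mg/kg alongside it and at 66.7 mg/kg afterwards. RT-TMZ + UCI-191 EV mice and, in a separate group, RT-TMZ + Shef6 EV mice (n = 3 each) had the same chemoradiation and then extracellular vesicles (EVs) from the human neural stem cell line of that name. The 3 CT2A groups carried in addition an implanted tumor of CT2A, a single mouse glioma cell line. They were CT2A + RT-TMZ + Veh (n = 4) and, with the vesicles of the respective cell line, CT2A + RT-TMZ + UCI-191 EV and also CT2A + RT-TMZ + Shef6 EV (each n = 3). No group with a tumor but without chemoradiation, and none with EVs but without chemoradiation, is among the samples, so both are seen only on top of chemoradiation. Sample labels say only brain, and the methods describe taking both prefrontal cortex and hippocampus. The paper's legend to its expression figure names the hippocampus as the tissue compared. No label of a single sample names a region, so the region of each sample rests on that legend.

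The extracellular matrix is the meshwork of secreted proteins that surrounds cells, and in the brain much of it lies in the basement membrane of blood vessels, where laminins bind integrins on endothelial cells and astrocyte endfeet. Fbln5 encodes fibulin-5, a secreted protein needed to assemble elastic fibers that also binds integrins. Itga6 encodes the integrin alpha-6 subunit, which pairs with a beta subunit to form laminin receptors. Tgm2 encodes transglutaminase 2, an enzyme that cross-links matrix proteins and also acts with integrins at the cell surface. Cd109 encodes a membrane-anchored protein that binds TGF-beta and dampens its receptor's signaling. Adamts16 encodes a secreted metalloproteinase of the family that trims matrix proteins.

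Promoter sequence from RefSeq (GRCm38.p6) was at hand for Fbln5, which of the 5 differed most between CT2A + RT-TMZ + Veh and the groups compared with it, and for none of the other members. Both Fbln5 windows end at an annotated start and are printed 5′ to 3′ on the gene's strand (minus), with the letters of 2 motifs in capitals on either strand: CAGAC, the core bound by SMAD proteins, and GGGCGG, the GC box bound by Sp1, which in window 1 stands as CCGCCC.

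Fbln5 window 1, chr12:101819120-101819369: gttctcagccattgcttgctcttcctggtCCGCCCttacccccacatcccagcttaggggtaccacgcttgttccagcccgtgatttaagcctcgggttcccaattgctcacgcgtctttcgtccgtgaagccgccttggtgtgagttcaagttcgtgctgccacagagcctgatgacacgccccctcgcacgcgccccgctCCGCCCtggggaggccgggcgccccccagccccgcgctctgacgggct

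Fbln5 window 2, chr12:101818485-101818734: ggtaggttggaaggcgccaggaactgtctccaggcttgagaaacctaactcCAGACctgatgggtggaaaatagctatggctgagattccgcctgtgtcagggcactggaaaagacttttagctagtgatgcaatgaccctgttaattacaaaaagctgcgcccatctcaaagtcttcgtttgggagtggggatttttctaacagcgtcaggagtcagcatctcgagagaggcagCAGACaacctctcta

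Window 1 held 2 copies of GGGCGG and 0 of CAGAC in 250 bases, with 65.2% G and C. Window 2 held 0 copies of GGGCGG and 2 of CAGAC, with 49.6% G and C. Of 32851 mouse promoter windows of this length, 42.2% held CAGAC, 32.7% held GGGCGG and 93.4% held GGAA, the ETS core, which was searched as well and was present in both (3 and 5 copies). The matches describe the letters only, and no binding was measured.

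The panel counts barcodes without amplification, and the regular spacing of low values gave back the scaling factor behind each sample. Implied total counts were 860714 to 1475405 per sample. The factor averaged 1.37 in CT2A + RT-TMZ + Veh and 0.889 to 1.07 in the other groups, so that the CT2A vehicle samples had the fewest counts and were scaled up most. Between 64 and 112 features per sample lay under 20 normalized counts (log2 4.32), taken as background. Itga6 was the most abundant of the members by counts, with 288 to 923 implied counts in a sample, followed by Fbln5 (37.8 to 397), Cd109 (25.0 to 309), Tgm2 (23.0 to 112) and Adamts16 (15 to 95.9). Counts of different genes also depend on their probes, so this order bears on precision and not on transcript numbers. Counting error alone gives Adamts16 an SD of 0.15 to 0.37 on the log2 scale and Itga6 one of 0.05 to 0.09. The pooled SD within groups was 0.13 for Itga6, 0.26 for Tgm2, 0.46 for Fbln5, 0.53 for Adamts16 and 0.61 for Cd109, against a median of 0.21 over all features.

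The 5 genes fell into a pair of patterns over the groups. Fbln5, Itga6 and Tgm2 were lowest in CT2A + RT-TMZ + Veh, below every sample of the next group. Their means in CT2A + RT-TMZ + UCI-191 EV lay among those of the tumor-free groups. In CT2A + RT-TMZ + Shef6 EV this held for Fbln5, while Itga6 (9.70) and Tgm2 (6.45) had their highest mean of the 7 groups there. Cd109 and Adamts16 did not share this pattern, varied more between mice of a group, and ran opposite to each other.

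**Figure D1:**
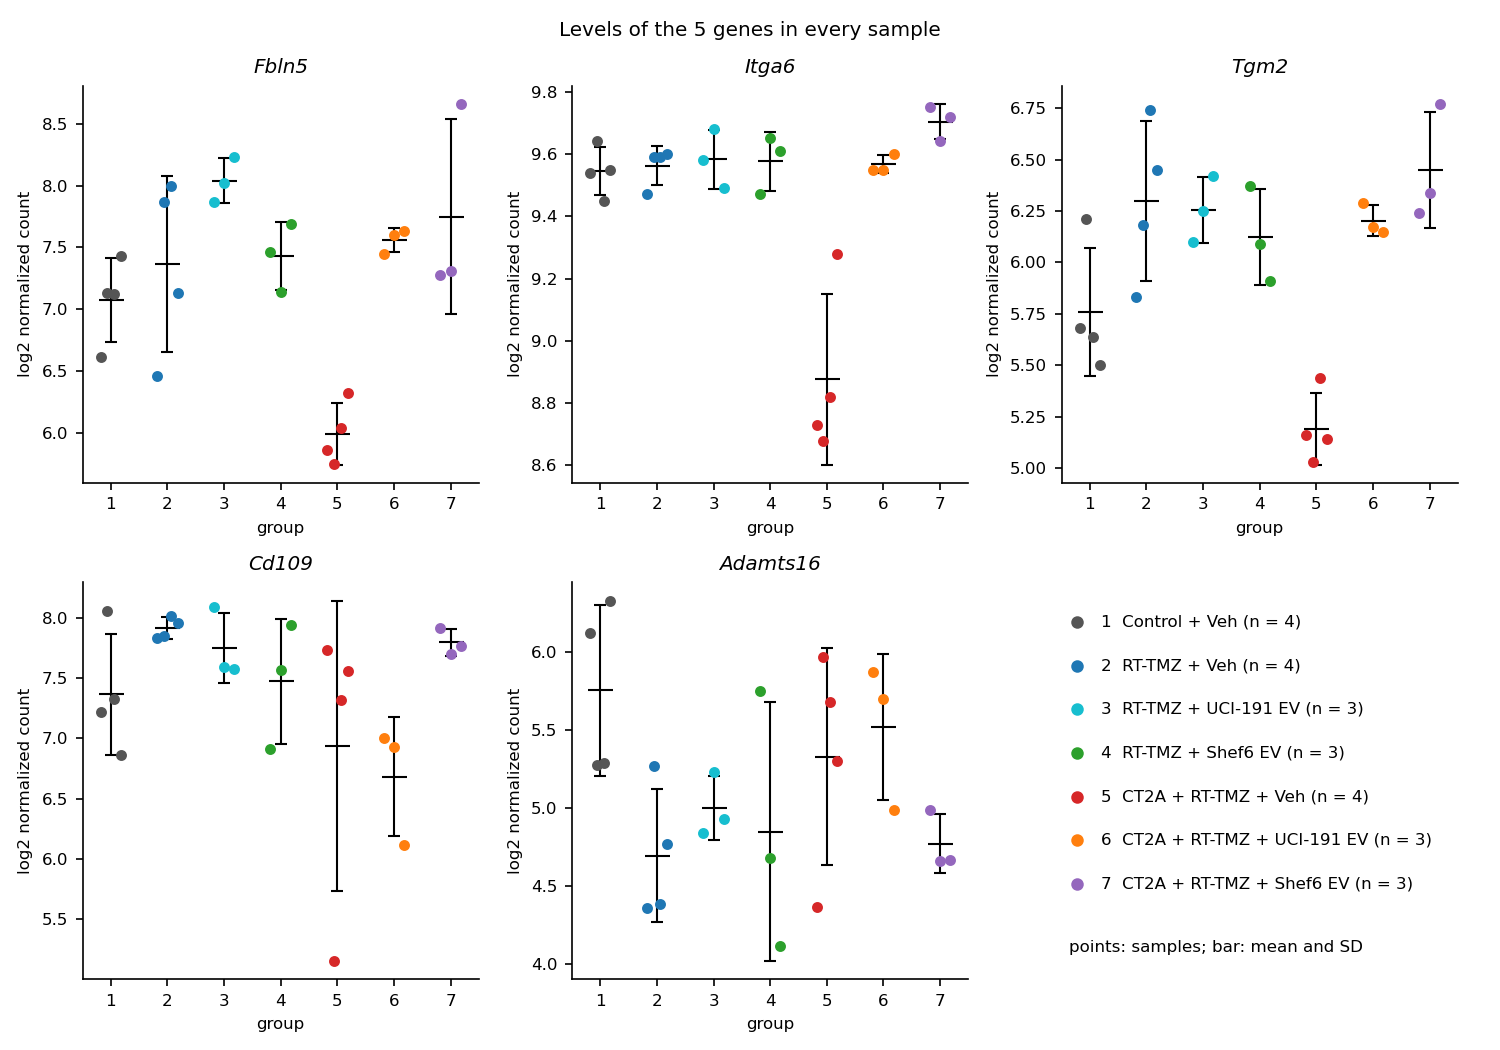
Log2 normalized count of each gene (vertical axes) in every sample of the 7 groups (horizontal axes, numbered as in the key), with the mean and SD. Fbln5, Itga6 and Tgm2 are lowest in the 4 CT2A + RT-TMZ + Veh samples, whereas Cd109 and Adamts16 overlap between all groups that are neighbors in the order of their means.

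Fbln5 was 5.86, 5.75, 6.04 and 6.32 in CT2A + RT-TMZ + Veh. It was 6.46, 7.87, 8.0 and 7.13 in RT-TMZ + Veh and 6.61, 7.13, 7.12 and 7.43 in Control + Veh. Every CT2A vehicle sample therefore lay below every sample of both tumor-free vehicle groups. With CT2A and EVs Fbln5 was 7.45, 7.60 and 7.63 (UCI-191) and 7.28, 7.31 and 8.66 (Shef6). Without tumor it was 7.87, 8.02 and 8.23 with UCI-191 EV, the highest mean of the 7 groups (8.04 ± 0.18, SD, n = 3), and 7.46, 7.14 and 7.69 with Shef6 EV. The group means rose from CT2A + RT-TMZ + Veh (5.99 ± 0.25, n = 4) to Control + Veh (7.07 ± 0.34, n = 4), RT-TMZ + Veh (7.37 ± 0.71, n = 4), tumor-free Shef6 EV (7.43), CT2A with UCI-191 EV (7.56), CT2A with Shef6 EV (7.75) and last tumor-free UCI-191 EV. The first step, of 1.08, was the single one of the 6 between neighbors at which the ranges did not overlap. The CT2A Shef6 sample at 8.66 was the highest of all 24.

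Itga6, the laminin receptor subunit, was 8.73, 8.68, 8.82 and 9.28 in CT2A + RT-TMZ + Veh. In the 20 samples of the other 6 groups it lay between 9.45 and 9.75. Replicate 4 of the CT2A vehicle group was thus the nearest to the other groups, and it too was below all of them. The order of the means began with CT2A + RT-TMZ + Veh (8.88 ± 0.27, n = 4) and Control + Veh (9.55 ± 0.08, n = 4), a step of 0.67. It ended with CT2A + RT-TMZ + Shef6 EV (9.70 ± 0.06, n = 3, samples at 9.75, 9.64 and 9.72). The 5 other neighboring pairs overlapped, and the 5 group means from Control + Veh to RT-TMZ + UCI-191 EV spanned 9.55 to 9.58.

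Tgm2, the cross-linking enzyme, was 5.16, 5.03, 5.44 and 5.14 in CT2A + RT-TMZ + Veh. It was 5.68, 6.21, 5.64 and 5.50 in Control + Veh and 5.83, 6.18, 6.74 and 6.45 in RT-TMZ + Veh. The lowest Control sample was 5.50 and the highest CT2A vehicle sample 5.44, so these groups were separate by a small margin. With CT2A and EVs it was 6.29, 6.17 and 6.15 (UCI-191) and 6.24, 6.34 and 6.77 (Shef6). The tumor-free EV samples lay between 5.91 and 6.42. From lowest to highest the means were those of CT2A + RT-TMZ + Veh (5.19 ± 0.17, n = 4), Control + Veh (5.76 ± 0.31, n = 4), tumor-free Shef6 EV (6.12), CT2A with UCI-191 EV (6.20), tumor-free UCI-191 EV (6.26), RT-TMZ + Veh (6.30) and CT2A with Shef6 EV (6.45 ± 0.28, n = 3), and all steps after the first (0.57) were between groups that overlapped.

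Cd109, the TGF-beta-binding protein, was 7.73, 5.15, 7.32 and 7.56 in CT2A + RT-TMZ + Veh. Replicate 2 was thus the lowest of all 24 samples, while the other 3 were within the range of Control + Veh (7.22, 8.06, 7.33 and 6.86). In CT2A + RT-TMZ + UCI-191 EV it was 7.0, 6.93 and 6.11, the lowest mean (6.68 ± 0.49, n = 3), and in CT2A + RT-TMZ + Shef6 EV 7.92, 7.70 and 7.77 (7.80 ± 0.11, n = 3). These CT2A EV groups did not overlap. In RT-TMZ + Veh it was 7.83, 7.85, 8.02 and 7.96, the highest mean and the narrowest of the 7 groups. The tumor-free EV samples were at 8.09, 7.59 and 7.58 (UCI-191) and at 6.91, 7.57 and 7.94 (Shef6), and overlapped. After the lowest group the means followed as CT2A + RT-TMZ + Veh (6.94 ± 1.21, n = 4), Control + Veh (7.37), tumor-free Shef6 EV (7.47), tumor-free UCI-191 EV (7.75), CT2A with Shef6 EV and RT-TMZ + Veh (7.92 ± 0.09, n = 4), and 0 of the 6 neighboring pairs were free of overlap.

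Adamts16, the metalloproteinase, was 6.12, 5.28, 5.29 and 6.33 in Control + Veh and 4.36, 5.27, 4.39 and 4.77 in RT-TMZ + Veh. The groups were separate only by the lowest Control sample, 5.28, and the highest RT-TMZ sample, 5.27, and samples at 4.36 and 4.39 were close to background. It was 4.84, 5.23 and 4.93 in RT-TMZ + UCI-191 EV and 5.75, 4.68 and 4.12 in RT-TMZ + Shef6 EV, whose last sample was under background. With CT2A it was 4.37, 5.97, 5.68 and 5.30 (vehicle), 5.87, 5.70 and 4.99 (UCI-191 EV) and 4.99, 4.66 and 4.67 (Shef6 EV). The means rose from RT-TMZ + Veh (4.70 ± 0.42, n = 4) to CT2A with Shef6 EV (4.77), tumor-free Shef6 EV (4.85 ± 0.83, n = 3), tumor-free UCI-191 EV (5.0), the CT2A vehicle group (5.33), CT2A with UCI-191 EV (5.52) and Control + Veh (5.76 ± 0.55, n = 4), and here as well 0 of the 6 neighboring pairs were free of overlap.

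Chemoradiation alone, RT-TMZ + Veh against Control + Veh, was compared first. Adamts16 was lower by 1.06 (standard error 0.30), or 2.08-fold, and was the single member called in this comparison, in which 17.8% of the 757 features were called (5.68% lower). It was also the single member without overlap, as were 7.27% of all features on the lower side. Nothing is read from these counts, since the choice of members knew them. Tgm2 and Cd109 had differences of 0.54 (standard error 0.22) and 0.55 (standard error 0.22), Fbln5 one of 0.29 (standard error 0.33) and Itga6 one of 0.02 (standard error 0.06). The call of Adamts16 was lost when any of 5 of the 8 samples was left out, with differences between −1.25 and −0.87, and in 4 of 9 other settings (the methods' t-test, the replicate block, a fit over all groups and one without the trend). On the panel were 27 other matrix, integrin, protease and adhesion genes (32 of 128 listed symbols were measured, the members included). Of these, 6 were called higher and 1 lower, beside 92 and 43 of all features. By sign alone 19 were higher and 8 lower. Among the called genes the largest rises were in Mmp12, the macrophage elastase (1.77), and Timp1, an inhibitor of metalloproteinases (1.12). Next were Serpina3n, a serine protease inhibitor of reactive astrocytes (0.77), and Itgax, an integrin subunit of myeloid cells (0.68). Emp1 (0.83) and Cd36 (0.69) rose without a call. Itgam, the microglial integrin subunit, fell by 0.36. Mmp12, Timp1 and Itgax had Control means under background. The median difference was 0.23 over these 27 genes, 0.29 over the members and 0.05 over all features.

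Among the tumor-free irradiated mice, the EV groups were compared with their vehicle group and with each other. With limma, 0 of the 757 features passed in each of these comparisons (0.0% called), while 92 (Shef6 EV against vehicle), 45 (UCI-191 EV against vehicle) and 83 (UCI-191 EV against Shef6 EV) had an unadjusted p under 0.05. Both EV comparisons use the same vehicle samples. With Shef6 EV, Cd109 was lower by 0.44 (standard error 0.22, adjusted p = 0.440 from limma), with −0.16 without Shef6 EV replicate 1 and −0.68 without replicate 3. The differences of the other members were 0.15 for Adamts16 (standard error 0.40, adjusted p = 0.915), 0.07 for Fbln5 (standard error 0.37, adjusted p = 0.956), 0.01 for Itga6 (standard error 0.07, adjusted p = 0.951) and −0.18 for Tgm2 (standard error 0.23, adjusted p = 0.780). The groups overlapped in all 5 members, while they did not overlap in 10.3% of all features.

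With UCI-191 EV against RT-TMZ + Veh, Fbln5 was 1.60-fold higher, a log2 difference of 0.68 (standard error 0.35). The study singles this gene out for the group, so the value is a description. Vehicle replicates 2 and 3 (7.87 and 8.0) lay within or at the edge of the EV range, and replicate 1 was the low sample. Without that replicate the difference was 0.37, and with each of the 7 samples left out it ranged from 0.37 to 0.89. The other members differed by 0.30 (Adamts16, standard error 0.24, adjusted p = 0.803), −0.16 (Cd109, standard error 0.14, adjusted p = 0.803), −0.04 (Tgm2, standard error 0.21, adjusted p = 0.967 from limma) and 0.02 (Itga6, standard error 0.06, adjusted p = 0.941), and 0 of the 5 were without overlap, against 6.61% of all features. The standard error of Itga6 was the smallest in these comparisons, and its level was the most closely measured of the 5.

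Between the vesicles, Fbln5 was higher with UCI-191 EV than with Shef6 EV by 0.61 (standard error 0.17), a 1.53-fold difference in which all 3 UCI-191 samples lay above all 3 Shef6 samples. Of all features 10.6% were likewise higher without overlap. The value is a description for the same reason as above, and ranged from 0.47 to 0.74 with a sample left out. The remaining members differed by 0.28 (Cd109, standard error 0.28, adjusted p = 0.642), 0.15 (Adamts16, standard error 0.40, adjusted p = 0.888), 0.13 (Tgm2, standard error 0.16, adjusted p = 0.712 from limma) and 0.01 (Itga6, standard error 0.08, adjusted p = 0.965). Of the 27 other listed genes, 0 passed in each of the 3 comparisons. Their median difference was −0.14 with Shef6 EV against vehicle, 0.02 with UCI-191 EV against vehicle and 0.20 between the vesicles, beside −0.04, −0.01 and 0.04 over all features.

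Ttr, the transthyretin gene of the choroid plexus and the only one of the 7 listed choroid plexus markers on the panel, was low in the same vehicle sample in which Fbln5 was low. It was 6.67, 14.40, 14.43 and 12.84 in RT-TMZ + Veh, 14.84, 14.25 and 14.85 in RT-TMZ + UCI-191 EV and 6.99, 14.13 and 14.79 in RT-TMZ + Shef6 EV. In that last group Fbln5 did not follow: it was 7.46 in replicate 1, where Ttr was low, and 7.14 in replicate 2. Across the 24 samples Fbln5 correlated with Ttr at r = 0.687, and within groups, as deviations from the group means, at r = 0.513. These are descriptions over samples that share groups and scaling. The part of the dissected region or of choroid plexus tissue in the Fbln5 difference was not tested.

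**Figure D2:**
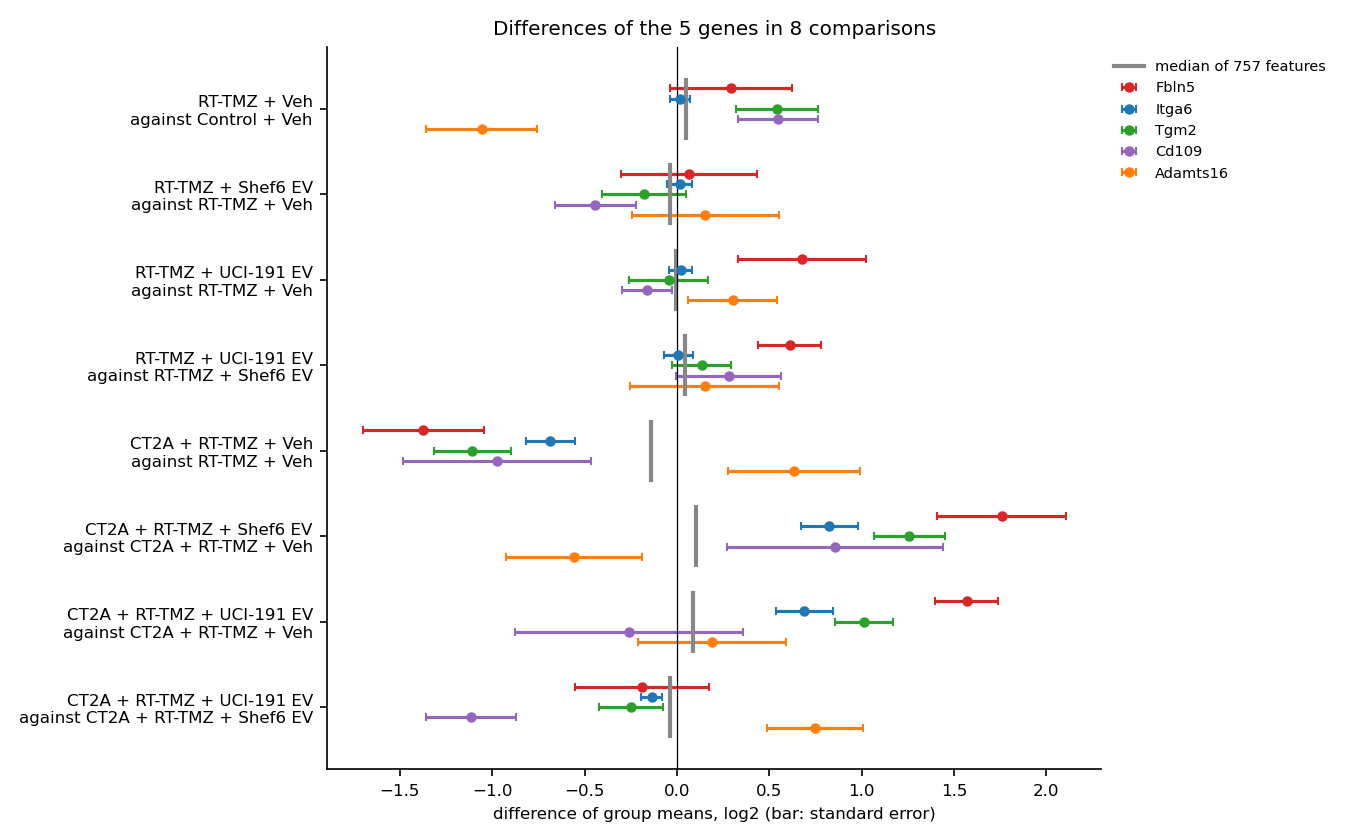
Difference of group means on the log2 scale (horizontal axis) with its standard error for each gene in 8 comparisons, beside the median of all 757 features (grey bar). Fbln5, Itga6 and Tgm2 lie together on one side of the grey bar in the comparisons with CT2A + RT-TMZ + Veh, and Fbln5 alone stands out in those with RT-TMZ + UCI-191 EV.

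The CT2A tumor was compared on top of chemoradiation, CT2A + RT-TMZ + Veh against RT-TMZ + Veh. Fbln5 was lower by 1.37 (standard error 0.33, 2.59-fold), Tgm2 by 1.11 (standard error 0.21, 2.15-fold) and Itga6 by 0.69 (standard error 0.13, 1.61-fold). These 3 were called, where 10.6% of all features were called (8.72% lower). Cd109 was lower by 0.98 (standard error 0.51) without a call, a value that rests on replicate 2 of the CT2A vehicle group and shrank to −0.38 without it. Adamts16 had a difference of 0.63 (standard error 0.36). In 4 of the 5 members the CT2A samples were all below the others, as in 15.7% of all features. Leaving out any of RT-TMZ + Veh replicates 2, 3 and 4 or CT2A + RT-TMZ + Veh replicate 3 left 0 features called, with 161 to 183 under 0.05 before adjustment by limma, and without CT2A + RT-TMZ + Veh replicate 1 there were 10, none of them a member. With the replicate block and with the methods' t-test the count was 0 as well, and median centring left 19 features called, 0 of them members. Of 9 settings other than left-out samples, Fbln5 passed in 4 (with quantile normalization it did not), Itga6 in 6 and Tgm2 in 6. Because the members were known for these differences, nothing is read from their share of calls.

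The tumor groups with EVs were compared with the same CT2A vehicle samples, so their differences share that group. The members were chosen with such values known. Nothing is therefore read from their calls, or from the settings that kept these, in the CT2A EV comparisons. With Shef6 EV, Fbln5 was higher by 1.76 (standard error 0.35, 3.38-fold), Tgm2 by 1.26 (standard error 0.19, 2.39-fold) and Itga6 by 0.83 (standard error 0.16, 1.77-fold), and these 3 were called and free of overlap (3.7% of all features called higher, 19.9% higher without overlap). The value of Fbln5 includes the sample at 8.66. Without that sample, replicate 3, it was 1.30, and no feature passed in limma, with 152 under 0.05 before adjustment. Features called numbered 0 also with quantile normalization, with the methods' t-test and without Shef6 replicate 1 or 2 or CT2A vehicle replicate 1 or 3, and 115 and 144 without vehicle replicates 2 and 4. Of the 9 other settings Fbln5 passed in 7, Itga6 in 6 and Tgm2 in 7. Cd109 had a difference of 0.86 (standard error 0.58), which was 0.26 without CT2A vehicle replicate 2, and Adamts16 one of −0.56 (standard error 0.37).

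With UCI-191 EV, Fbln5 was higher than in the CT2A vehicle group by 1.57 (standard error 0.17, 2.96-fold) and Tgm2 by 1.01 (standard error 0.16, 2.02-fold), and both were called (1.45% of all features called higher). Itga6 was higher by 0.69 (standard error 0.16, 1.61-fold) without passing. As above, nothing is read from the members' calls. All 3 were free of overlap, as were 15.9% of all features on the higher side. Cd109 and Adamts16 had differences of −0.26 (standard error 0.62) and 0.19 (standard error 0.40). Cd109 was at −0.86 without CT2A vehicle replicate 2 and at 0.025 without UCI-191 EV replicate 3, and Adamts16 ran from −0.13 to 0.46 with a sample left out, so neither has a settled direction here. The count of features called was 0 with the methods' t-test, 0 to 3 without UCI-191 EV replicate 1, 2 or 3 or CT2A vehicle replicate 1 or 3, and 79 and 87 without vehicle replicates 2 and 4, and of the 9 other settings Fbln5 passed in 7 and Tgm2 in 5.

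Between the CT2A EV groups the 3 genes of the first pattern differed little and the other pair differed most. Fbln5 was −0.19 (standard error 0.36), Tgm2 −0.25 (standard error 0.17) and Itga6 −0.14 (standard error 0.06) with UCI-191 EV relative to Shef6 EV, and without Shef6 EV replicate 3 the difference of Fbln5 turned to 0.27. Cd109 was lower with UCI-191 EV by 1.12 (standard error 0.24, 2.17-fold) and was called, as were 2.51% of all features on the lower side. Cd109 and Itga6 were lower without overlap, as were 18.6% of all features. Adamts16 was higher by 0.75 (standard error 0.26, 1.68-fold) without a call. Here too, nothing is read from the members' calls. Leaving out UCI-191 EV replicate 2 or any Shef6 EV sample ended the call of Cd109, with 10 to 24 features then called, and it held in 4 of 9 other settings (not with quantile normalization, the methods' t-test, the replicate block, a fit over all groups or one without the trend).

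Genes of endothelial cells moved with Fbln5, Itga6 and Tgm2. In bulk tissue, fewer cells of a type and less RNA per cell cannot be told apart. Of the 14 listed endothelial markers 8 were measured, and their mean level was 7.29 to 7.97 in CT2A + RT-TMZ + Veh and 8.36 to 8.93 in the samples of the other 6 groups. Of these 8, 0 were higher and 6 were called lower in the comparison with RT-TMZ + Veh. Against the CT2A vehicle group all 8 were higher with Shef6 EV (median difference 0.92) and with UCI-191 EV (0.94). Of them, 7 were called with Shef6 EV and 4 with UCI-191 EV. In the 3 tumor-free EV comparisons 0 passed. Pecam1, an adhesion molecule of endothelial junctions, was 7.23, 8.0, 7.89 and 8.45 in CT2A + RT-TMZ + Veh and 9.42, 9.50 and 9.54 in CT2A + RT-TMZ + UCI-191 EV. It was 9.24, 9.39 and 9.79 in CT2A + RT-TMZ + Shef6 EV, where the sample with the highest Pecam1 was also the one with the highest Fbln5. Listed mural and fibroblast markers (7 and 6) were not on the panel. Of 5 astrocyte markers, 0 were higher and 3 were called lower in the tumor comparison. Their mean was between 11.2 and 11.6 in the CT2A vehicle samples and between 11.6 and 11.8 elsewhere. Ttr moved the same way without a call, by −3.59 in the tumor comparison, 4.47 with Shef6 EV and 4.51 with UCI-191 EV. It was 7.49, 5.31, 7.23 and 13.94 in CT2A + RT-TMZ + Veh, 9.73, 14.31 and 14.86 with Shef6 EV and 13.09, 14.05 and 11.87 with UCI-191 EV, so that 1 vehicle sample was within the range of the EV samples. The 5 measured oligodendrocyte markers had median differences of −0.57, 0.59 and 0.57 in these comparisons, with 0 called in each. Their mean ran from 8.87 to 10.92 in the CT2A vehicle samples, which overlapped the other groups (10.66 to 10.98 in RT-TMZ + Veh). The part of endothelial, choroid plexus or oligodendrocyte content, of the low counts of the CT2A vehicle samples or of their scaling in these differences was not tested.

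Of the 27 other listed genes, 7 were called lower and 0 higher in CT2A + RT-TMZ + Veh against RT-TMZ + Veh (66 lower and 14 higher over all features). By sign alone 23 were lower and 4 higher. Among the called genes the largest falls were in Pecam1 (−1.49) and Emp1, a membrane protein of epithelial and endothelial cells (−1.26). Next were Anxa1, the phospholipid-binding annexin A1 (−1.24), and Esam, an endothelial adhesion molecule (−0.76). Icam2 had a difference of −0.81 without a call. Against the CT2A vehicle group, 5 were called higher with Shef6 EV, led by Pecam1 (1.58), Emp1 (1.23), Icam2 (0.96) and Esam (0.88). Anxa1 rose by 1.36 there without a call. With UCI-191 EV 3 were called higher, namely Pecam1 (1.59), Esam (0.93) and Icam2 (0.93), an endothelial ligand of leukocyte integrins. Itgav rose by 1.11 there without a call. Pecam1, Esam, Icam2, Cldn5 and Emcn are also on the endothelial list, so their calls are the same as those counted for the endothelial markers above. Between the CT2A EV groups Itga7, the laminin-binding integrin subunit alpha-7, was lower with UCI-191 EV by 1.01 and was the single gene called. Medians over the 27 genes were −0.45 in the tumor comparison, 0.44 with Shef6 EV, 0.20 with UCI-191 EV and −0.22 between the vesicles, beside −0.14, 0.11, 0.09 and −0.04 over all features.

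Set against the mean of the 8 endothelial markers of the same sample, the first pattern was no longer the same for its 3 genes. Relative to the Control + Veh mean, this difference in CT2A + RT-TMZ + Veh was −0.12 for Fbln5, 0.39 for Tgm2 and 0.29 for Itga6. Tgm2 then stood at 0.41 in RT-TMZ + Veh, so that its levels in both vehicle groups after chemoradiation were alike on this scale, while Itga6 relative to the markers was at 1.21 to 1.44 in the CT2A vehicle samples and at most 1.11 in the tumor-free samples. In the CT2A groups with EVs Itga6 was instead below the Control mean on this scale (−0.17 with UCI-191 and −0.057 with Shef6), with 1 Shef6 sample at 1.22, inside the range of the CT2A vehicle samples. Fbln5 was highest relative to the markers in RT-TMZ + UCI-191 EV, at 0.77. The differences are within a sample and show unequal change only.

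**Figure D3:**
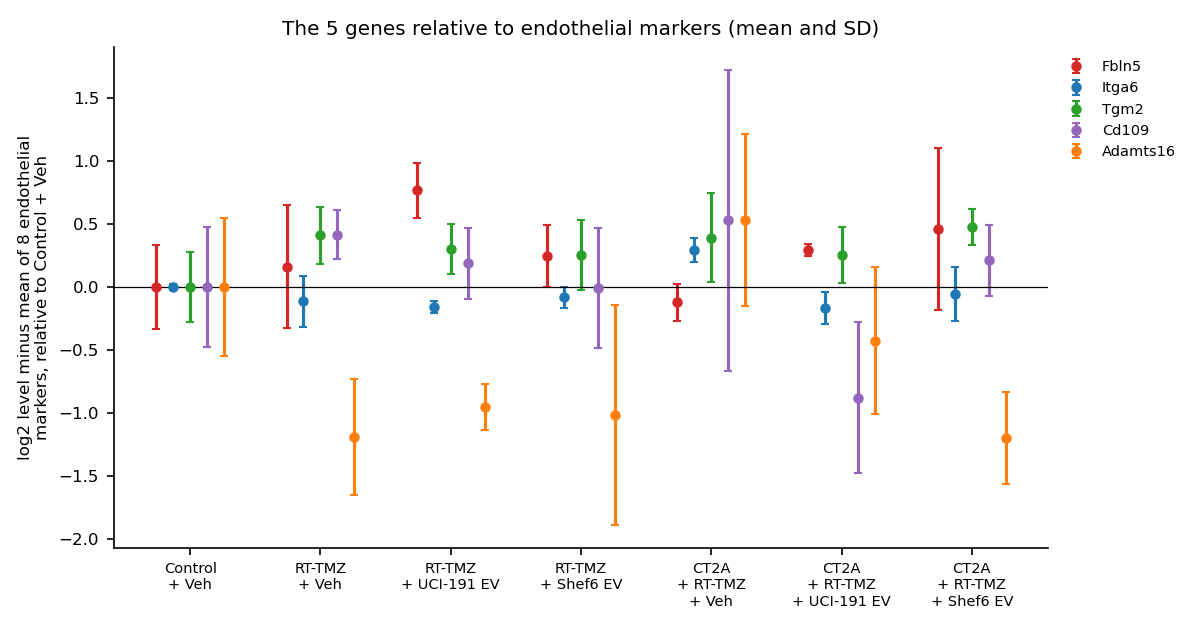
Log2 level of each gene minus the mean of the 8 measured endothelial markers in the same sample, relative to the Control + Veh mean of that difference (vertical axis), as mean and SD for the 7 groups (horizontal axis). In CT2A + RT-TMZ + Veh the mean is −0.12 for Fbln5, 0.29 for Itga6 and 0.39 for Tgm2, and in RT-TMZ + UCI-191 EV Fbln5 stands at 0.77.

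The genes whose levels were most like those of each member over the 24 samples also separated the patterns. Pearson correlations are given as descriptions, since samples share groups, depth and scaling, and r is given in parentheses. Fbln5 was most like Lsr, which encodes a tight junction protein (0.914), Anxa1 (0.893) and the apoptosis regulator Cflar (0.878). Lsr was 7.03, 6.70, 7.30 and 7.83 in CT2A + RT-TMZ + Veh and between 7.96 and 8.93 elsewhere, the same low group as for Fbln5. Within groups the correlation of Fbln5 with Lsr was 0.715. Tgm2 was most like Pros1, which encodes the anticoagulant protein S (0.90), Anxa1 (0.855) and the major vault protein gene Mvp (0.847). Fbln5 and Tgm2 correlated at 0.834 with each other, and within groups at 0.519.

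Itga6 was most like Flt1, a VEGF receptor of endothelial cells (0.954), Dock1, an activator of the GTPase Rac (0.936), and the endothelial receptor Tie1 (0.933). Spearman's rho for these was lower (0.579, 0.681 and 0.575). Flt1 was 6.19, 6.61, 6.44 and 7.78 in CT2A + RT-TMZ + Veh, and replicate 4 was again the nearest to the other groups, where Flt1 lay between 8.19 and 8.93. Within groups Itga6 and Flt1 correlated at 0.828, and Itga6 with Tgm2 at 0.104.

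Cd109 was most like Itga7 (0.928), Serpina3n (0.882) and Il1rap, the accessory subunit of the interleukin-1 receptor (0.875), and the correlations within groups were 0.930, 0.941 and 0.929. Spearman's rho over the 24 samples was lower (0.786, 0.771 and 0.668). Without the 2 samples in which the other gene was farthest from its median, r was 0.785, 0.859 and 0.590. Itga7 was 8.33, 6.12, 7.57 and 8.26 in CT2A + RT-TMZ + Veh, low in the same replicate 2 as Cd109. It was 7.37, 7.65 and 7.13 in CT2A + RT-TMZ + UCI-191 EV and 8.42, 8.25 and 8.51 in CT2A + RT-TMZ + Shef6 EV, again in the order of Cd109. Adamts16 was most like Mfge8, which encodes a bridging protein of phagocytosis (0.701), the prostaglandin receptor gene Ptger3 (0.699) and the mismatch repair gene Pms2 (0.686), all weaker likenesses than those of the other members. Cd109 and Adamts16 correlated at −0.604 with each other and at −0.526 within groups.

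Mef2c, a transcription factor of forebrain neurons, tended to be high where Cd109 was low, with exceptions. It was 11.67, 13.93, 11.91 and 11.85 in CT2A + RT-TMZ + Veh, with the high value in replicate 2. It was 13.71, 13.91 and 14.0 in CT2A + RT-TMZ + UCI-191 EV, 12.04, 12.07 and 12.09 in CT2A + RT-TMZ + Shef6 EV and 14.38, 14.10 and 11.91 in RT-TMZ + Shef6 EV. In that last group the sample with the lowest Mef2c had the highest Cd109, 7.94. Control + Veh replicate 4 had a low Cd109, 6.86, at a Mef2c of 12.91, and RT-TMZ + Shef6 EV replicate 2 a Cd109 of 7.57 at a Mef2c of 14.10. Over the 24 samples Mef2c correlated with Cd109 at −0.697 (within groups −0.810), with Adamts16 at 0.447 (within groups 0.644) and with Fbln5 at −0.015. The mean of the 10 measured neuron markers, Mef2c included, ranged from 12.2 to 12.4 in CT2A + RT-TMZ + UCI-191 EV and was 12.0 in the CT2A + RT-TMZ + Shef6 EV samples. Elsewhere the list did not follow Mef2c. With UCI-191 EV against CT2A vehicle its median difference was −0.01 (5 of 10 higher), at Mef2c means of 13.87 and 12.34. With tumor-free Shef6 EV against vehicle it was 0.03 (6 of 10 higher), at Mef2c means of 13.46 and 12.41. The part of the sampled brain region in the Cd109 and Adamts16 differences was not tested.

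**Figure D4:**
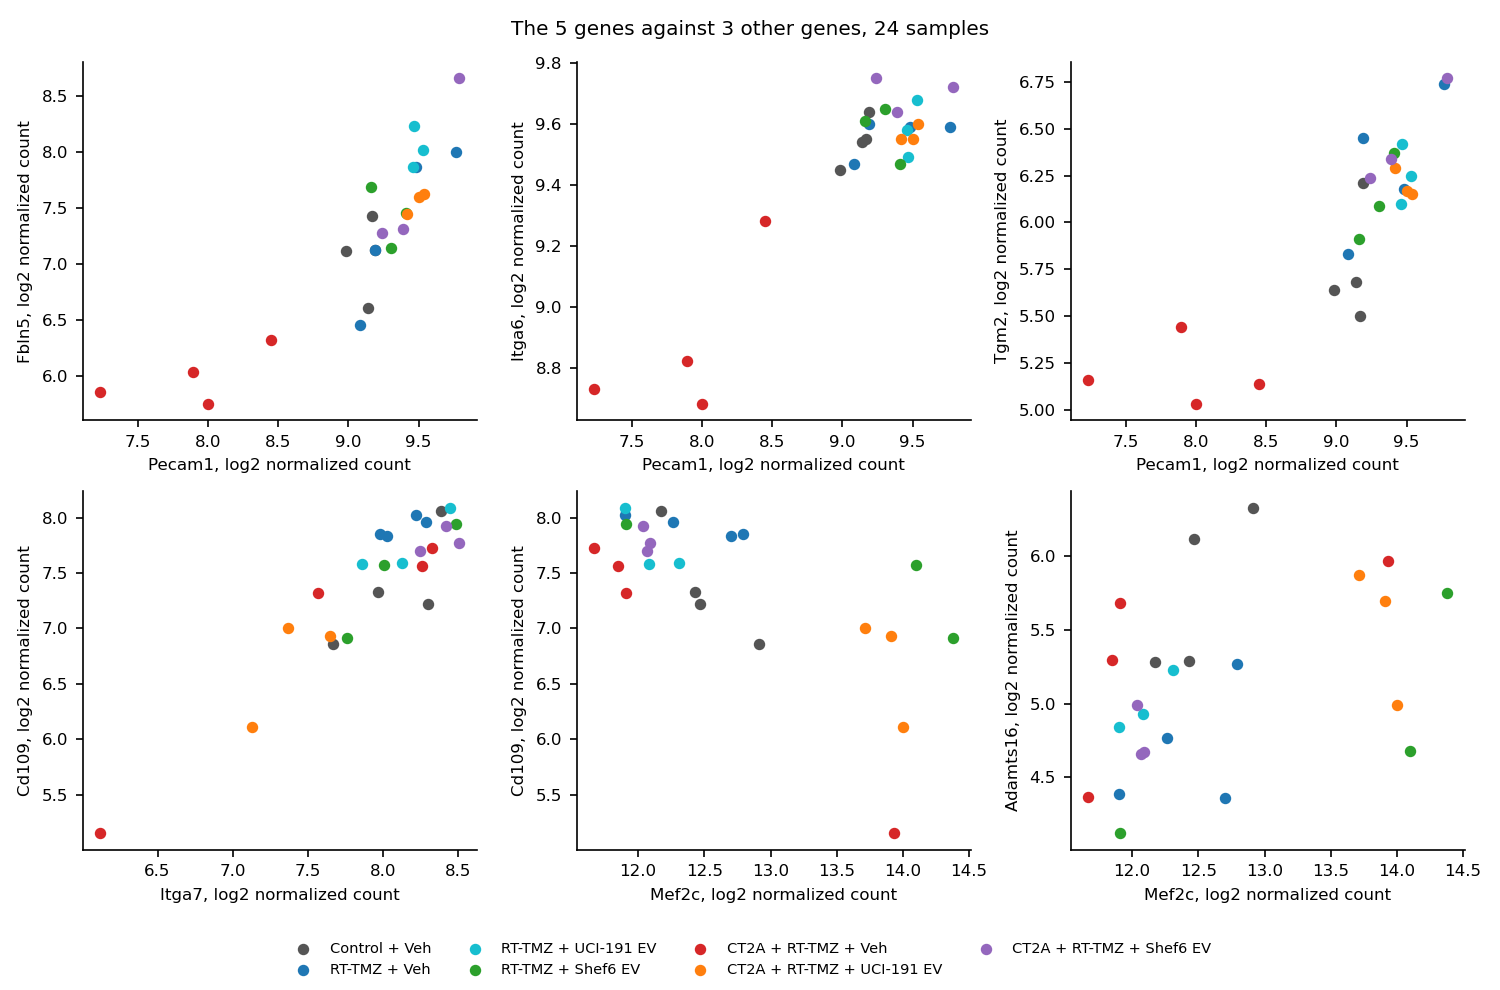
Log2 normalized counts of Fbln5, Itga6 and Tgm2 against Pecam1, of Cd109 against Itga7 and Mef2c, and of Adamts16 against Mef2c, with 1 point per sample in the color of its group. The 4 CT2A + RT-TMZ + Veh samples lie apart at low Pecam1. Cd109 tends to be low in samples with Mef2c near 14, with exceptions. Control + Veh replicate 4 has a Cd109 of 6.86 at a Mef2c of 12.91, and RT-TMZ + Shef6 EV replicate 2 has 7.57 at 14.10.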

How the data were processed

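RNA from 24 brain samples was hybridized to barcoded probes and counted. The deposited values are log2 normalized counts, which the authors scaled to positive controls and then to 13 reference genes in the nCounter software. The reference genes and control probes are not used here, and the normalization could not be repeated. Of 757 features, 703 carry a symbol through the platform annotation, all matched by Entrez ID in RefSeq with 0 symbols changed, and 54 carry none. Labels call the samples separate, and the design names 24 mice.

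Each comparison was a limma 3.58.1 fit (under R 4.3.3) of its own groups only, with a trend of the variance on the mean and Benjamini-Hochberg adjustment over 757 features and a threshold of 0.05. Python 3.11.15, numpy 2.4.6, pandas 2.3.3, scipy 1.17.1 and matplotlib 3.10.9 were used for the rest. Fits and the recovery of scaling factors were tested on simulated data. With the factor divided out, 95.7% to 100.0% of a sample's low values lay within 0.15 of a whole number. The lowest value of each sample is shared by several features.

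Members and gene lists were chosen with earlier results of these data known, and the recorded rule does not say which values chose the members. RT-TMZ + Veh against Control + Veh, planned as a test of the members, was therefore turned into a description, since Adamts16 passed there. Named genes are the members, the 3 features most like each over 24 samples, up to 4 called genes of the list with the largest difference, and cell type markers that moved with a result. The levels of members relative to endothelial markers were an addition made once values were known.

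Same-numbered samples deviated together from their group means in RT-TMZ + Shef6 EV against RT-TMZ + Veh (r = 0.583, 0.319 and 0.474). The data are the only basis for a pairing there. Standard errors and adjusted p-values given for the members come from fits without pairing, and the replicate number entered only as an alternative. The alternatives were other scalings, a pseudocount of 20, features above background, the methods' t-test, a fit over all groups, no trend, the replicate number as a block and each sample left out.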

Additional observations from a re-analysis of the deposited data

Results flagged for a closer look

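Itga6 in RT-TMZ + Veh replicate 1 was 9.47, while the other 3 samples of the group lay at 9.59 to 9.60, so that its gap to the nearest sample was 0.923 of the group's range. Cd109 in CT2A + RT-TMZ + Veh replicate 2 was 5.15, against 7.32 to 7.73 in the other 3, a gap of 0.841 of the range. Each was marked because a single sample stood far from its group. Over the 5 genes and 3 groups of 4 samples 15 such checks were made, and chance marks about 1 in 20.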

How the results depend on the processing

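Counts of features called moved as follows. In RT-TMZ + Veh against Control + Veh (135) they were 76 with the scaling factor divided out, 88 with all groups in 1 fit, 60 with the methods' t-test and 68 with the replicate block, and 79 to 173 with 1 sample left out. In CT2A + RT-TMZ + Veh against RT-TMZ + Veh (80) they were 19 with median centring, 608 with the factor divided out, 238 in 1 fit, 0 with the t-test, 24 without the trend, 0 with the block and 0 to 167 with a sample left out. With Shef6 EV and CT2A (38) they were 0 with quantile normalization, 298 with the factor divided out, 61 above background, 237 in 1 fit, 0 with the t-test, 71 with the block and 0 to 144 with a sample left out. With UCI-191 EV and CT2A (11) they were 333 with the factor divided out, 25 with the pseudocount, 27 above background, 217 in 1 fit, 0 with the t-test, 1 with the block and 0 to 87 with a sample left out. Between the CT2A EV groups (50) they were 25 in 1 fit, 1 with the t-test, 25 without the trend, 11 with the block and 10 to 64 with a sample left out. In the tumor-free EV comparisons they were 0 except for 1 with the t-test between the vesicles and 73 (Shef6 EV against vehicle) and 103 (between the vesicles) without RT-TMZ + Shef6 EV replicate 3, the ranges being 0 to 73 and 0 to 103.

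In RT-TMZ + Shef6 EV against RT-TMZ + Veh, where same-numbered samples deviated together, the replicate block called 0 features as well. In the other comparisons samples shared only a number. Correlations of same-numbered deviations there ranged from −0.309 to 0.229.

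The gap between the lowest group and the next moved with the scaling. It was 1.70 for Fbln5 (1.08), 1.08 for Itga6 (0.67) and 1.18 for Tgm2 (0.57) with the factor divided out, and 0.36 and 0.42 for Itga6 with median centring and quantile normalization. For Cd109 and Adamts16 the lowest group changed with the factor divided out (−0.13 and −0.13). With a sample left out the gaps were 0.96 to 1.23 for Fbln5, 0.60 to 0.80 for Itga6, 0.41 to 0.65 for Tgm2, −0.025 to 0.69 for Cd109 and −0.30 to 0.27 for Adamts16. Median centring moved the median of all features by 0.27 in the CT2A tumor comparison and by −0.29 and −0.19 in the CT2A Shef6 EV and UCI-191 EV comparisons, and dividing the factor out moved it by −0.56, 0.36 and 0.39. Fbln5, Itga6 and Tgm2 kept their direction under all of these, but in the tumor comparison median centring ended the call of each (−1.10, −0.42 and −0.84) and quantile normalization that of Fbln5 (−1.10).

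Small differences changed sign without a call. Shef6 EV against vehicle gave −0.013 for Fbln5 with the block and −0.028 for Itga6 with the factor divided out. UCI-191 EV against vehicle gave −0.057 for Itga6 with median centring, and for Tgm2 0.019 with the factor divided out and 0.0067 with the block. Between the vesicles Itga6 was −0.13 with median centring and −0.068 with quantile normalization, and Tgm2 −0.060 with the latter. With a sample left out the ranges were −0.24 to 0.28 (Fbln5), −0.023 to 0.068 (Itga6) and −0.30 to 0.52 (Adamts16) for Shef6 EV, −0.028 to 0.068 (Itga6) and −0.20 to 0.10 (Tgm2) for UCI-191 EV, and −0.047 to 0.053 (Itga6) and −0.22 to 0.60 (Adamts16) between the vesicles. Of the 3 genes most like a member, by group means 1 was shared for Itga6, 1 for Tgm2, 0 for Cd109 and 0 for Adamts16. The cause was not tested for any of these.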
